A study of Mus musculus with 2 samples.

Results

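The genes described here are 34 genes of macrophages and of lipid-handling myeloid cells, named as a list by symbol and read in whole adrenal glands of 2 mice. All 34 were found once each among the 55536 genes of the deposited gene tables, on 15 chromosomes. Total RNA-seq had been done on adrenal gland tissue of 2 female B6CASTF1/J mice, the F1 cross of C57BL/6J and CAST/EiJ, aged 18 to 20 months. Each animal gave 1 library, all in 1 group, and the names animal 1 and animal 2 follow the numbers of the biological replicates. Both animals share strain, sex, age and source, neither carries a labelled transgene or treatment, and 300 ng of RNA, with synthetic spike-ins, went into each library. One field of the labels gives animal 2 the same female and library name as animal 1, and both carry the same donor identifier, while the other fields name separate females and tissue samples. With no second group, no test between groups and no p-value is given. Where the animals are compared, the value is that of animal 1 over animal 2.

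Macrophages reside in the cortex and medulla of the adrenal gland, where cortical cells store cholesterol esters as the raw material of steroid hormones. They take up dying cells, lipoproteins and immune complexes through scavenger, complement and Fc receptors, and digest the cargo with lysosomal proteases and lipases. Under a lipid load, macrophages in several mouse tissues raise a set of genes that includes Trem2, Gpnmb, Cd9, Spp1 and Lgals3. Whole tissue holds few such cells among steroidogenic, chromaffin, endothelial and connective-tissue cells, and some of the genes, Ctsd and Cd9 among them, are also active outside macrophages.

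The genes were sorted into 7 roles: pan-macrophage genes, the C1q complement chains, resident and scavenger receptors, lipid-associated genes, signalling adaptors and Fc receptors, monocyte and integrin genes, and lysosomal proteases. At a level of at least 1 TPM (transcript abundance per length, scaled to the same total in each library) in both libraries, 28 of the 34 were detected, beside 12552 of all 55536 genes and 11539 of 22015 nuclear protein-coding genes. The 6 below that level in at least 1 library were Cx3cr1, Gpnmb, Folr2, Ccr2, Itgax and Timd4, and none was listed at 0. The 34 genes summed to 631.43 TPM in animal 1 against 678.06 TPM in animal 2, a mean of 654.7 ± 33.0 TPM (SD, n = 2). That was 0.0631% and 0.0678% of the TPM of all entries in animals 1 and 2. Ctsd alone held 61.9% of the sum in animal 1 and 60.1% in animal 2. Without it the other 33 genes summed to 240.42 TPM in animal 1 against 270.60 TPM in animal 2. Without Ctsd, Lyz2 and Cd9, the sums were 152.74 TPM in animal 1 against 191.24 TPM in animal 2, with the order of the animals unchanged. The TPM of all nuclear protein-coding genes had the same order, with sums of 294171 in animal 1 and 310087 in animal 2. In whole tissue, fewer cells of a type and less RNA per cell cannot be told apart, here or in any value that follows.

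**Figure D1:**
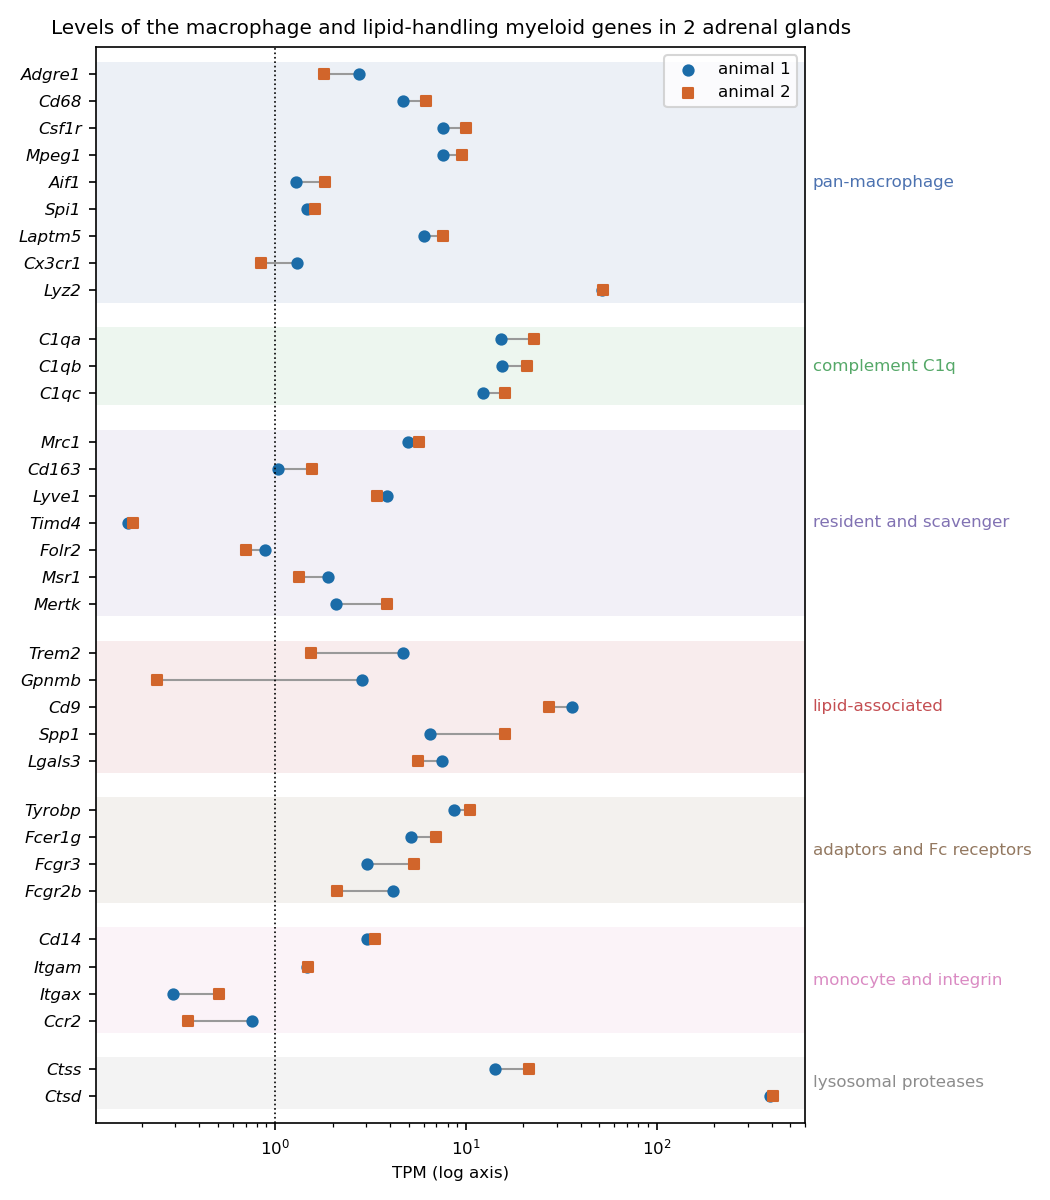
TPM of each of the 34 genes on a log axis in animal 1 (blue circles) and animal 2 (orange squares), grouped by role, with the detection level of 1 TPM as a dotted line. Ctsd stands alone near 400 TPM, Gpnmb has the widest gap between the animals, at 2.85 TPM in animal 1 against 0.24 TPM in animal 2, and Timd4 is the lowest.

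Scaled counts placed 14 of the 34 genes higher in animal 1 and 20 higher in animal 2. Of the 17012 genes of the whole table that averaged 10 or more expected counts, 8721 were higher in animal 1 and 8291 in animal 2. The median log2 ratio was -0.13 for the 34 genes, beside 0.01 over the 17012. Scaling by the spike-ins shifted every ratio down and gave medians of -0.35 for the 34 genes and -0.21 for all genes. With it, 11 of the 34 were higher in animal 1, beside 4943 of the 17012. Counts by direction under spike-in scaling, here and below, stand beside that share of all genes. The 2-fold rule asks for a scaled ratio of 2 or more in either direction, an average of 50 or more expected counts, and deposited TPM intervals that are separate between the animals. Of the 31 genes with that count, 4 passed, beside 3.46% of the 13569 genes tested in the whole table. Trem2, Gpnmb and Ccr2 were higher in animal 1, in a table where 1.75% of genes passed in that direction. Spp1 was higher in animal 2, where 1.71% of genes passed. By separate TPM intervals alone, 17 of the 31 stood apart, beside 33.1% of the genes tested. Of these, 6 were higher in animal 1, beside 12.3% of all, and 11 were higher in animal 2, beside 20.7% of all. Of the 4 genes past the 2-fold rule, Trem2, Gpnmb and Spp1 belong to the lipid-associated role.

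**Figure D2:**
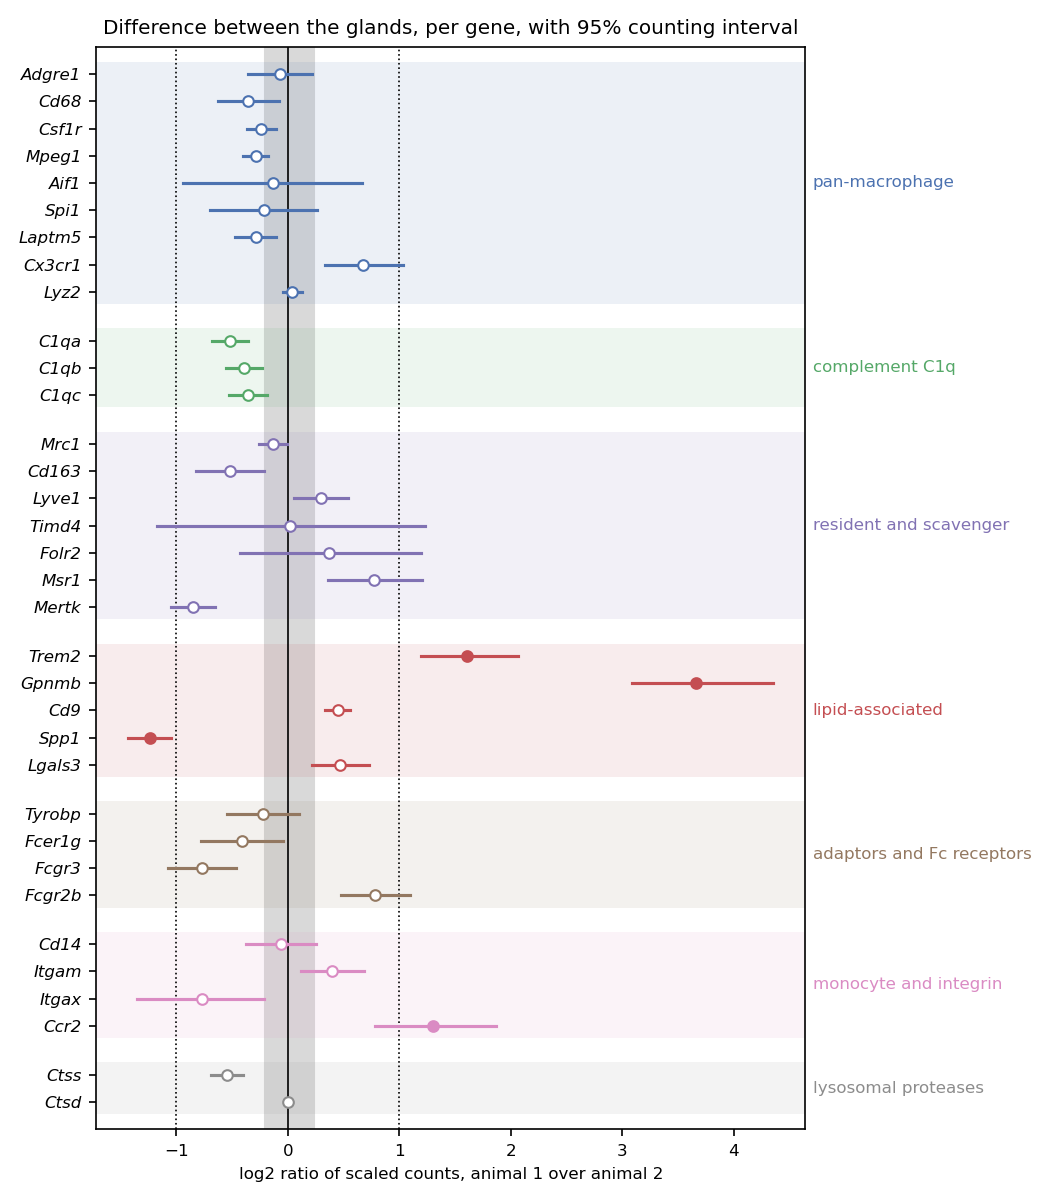
Log2 ratio of scaled counts, animal 1 over animal 2, for each gene, with bars for the 95% counting interval, which holds no variation between animals or preparations. Filled points mark the 4 genes past the 2-fold rule (Trem2, Gpnmb, Ccr2 and Spp1), dotted lines the 2-fold change, and the grey band the range between the quartiles of all genes that average 50 or more counts.

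The sequences upstream of 6 of these genes are shown because they belong to a pair of the C1q chains, to the most abundant gene and to the lipid-associated genes past the 2-fold rule. The RefSeq promoter table (GRCm38.p6) held windows for 26 of the 34 genes; Lyve1, Adgre1, Tyrobp, Msr1, C1qa, Cd14, Csf1r and Spi1 had no entry in it. The 250 bases before each start were searched on both strands for 3 motifs chosen after the values of the genes were seen. They were AGGAAGT, the core bound by PU.1, the myeloid factor encoded by Spi1, TCATGTG, the M-box of the MITF and TFE factors, and TCACGTG, the core of the lysosomal CLEAR element. The M-box and the CLEAR core differ at 1 base, and the PU.1 core overlaps neither. Capitals mark the matches, each sequence runs 5′ to 3′ on the strand of its gene, and bases that a GENCODE M21 exon covers were left out. The stretches are chr4:136886201-136886450 (minus strand) for C1qb, chr4:136893066-136893164 (minus) for C1qc, chr7:142388039-142388077 (minus) for Ctsd, chr5:104434861-104435110 (plus) for Spp1, chr17:48346151-48346400 (plus) for Trem2 and chr6:49036268-49036517 (plus) for Gpnmb.
C1qb: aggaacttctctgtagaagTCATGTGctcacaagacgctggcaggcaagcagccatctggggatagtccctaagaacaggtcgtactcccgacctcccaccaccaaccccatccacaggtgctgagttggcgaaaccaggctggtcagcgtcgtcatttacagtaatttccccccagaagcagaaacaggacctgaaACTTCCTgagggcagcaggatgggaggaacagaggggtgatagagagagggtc
C1qc: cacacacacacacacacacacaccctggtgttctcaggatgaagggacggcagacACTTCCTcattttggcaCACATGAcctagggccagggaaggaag
Ctsd: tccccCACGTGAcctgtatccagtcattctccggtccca
Spp1: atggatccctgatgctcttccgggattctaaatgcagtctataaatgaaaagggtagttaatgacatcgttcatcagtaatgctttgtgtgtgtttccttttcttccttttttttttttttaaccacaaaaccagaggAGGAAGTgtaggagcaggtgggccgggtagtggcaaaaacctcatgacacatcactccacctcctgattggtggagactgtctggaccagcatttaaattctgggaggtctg
Trem2: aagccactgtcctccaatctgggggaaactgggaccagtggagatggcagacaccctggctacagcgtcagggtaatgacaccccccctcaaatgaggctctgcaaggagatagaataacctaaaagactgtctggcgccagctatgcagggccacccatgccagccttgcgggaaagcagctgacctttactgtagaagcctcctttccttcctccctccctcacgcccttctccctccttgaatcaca
Gpnmb: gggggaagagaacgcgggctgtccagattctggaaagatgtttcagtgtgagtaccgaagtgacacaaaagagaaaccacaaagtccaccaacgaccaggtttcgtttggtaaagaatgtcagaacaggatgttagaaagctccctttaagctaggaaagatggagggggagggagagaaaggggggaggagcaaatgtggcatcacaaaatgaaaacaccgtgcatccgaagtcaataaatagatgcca

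A PU.1 core stood in the windows of 6 of the 26 genes, namely C1qb, C1qc, Folr2, Lyz2, Mrc1 and Spp1, and in 6 of their 29 windows, or 20.7%, beside 7.69% of all 32851 windows in the table. The M-box stood in the windows of C1qb and C1qc, 6.90% of the 29 windows, beside 3.25% of all windows. These C1q windows each held a PU.1 core and an M-box, at 53 and 231 bases before the start in C1qb, and at 195 and 178 bases before it in C1qc. The CLEAR core stood in the Ctsd window, 3.45% of the 29 windows, beside 3.13% of all windows. It lay 245 bases before the RefSeq start and again near 99 bases before it, where the matches on the 2 strands overlap, and the first of these stands in the stretch shown. The windows of Trem2 and Gpnmb held none of the 3 motifs. A match describes these letters in this window and is not a measured binding site.

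Among the lipid-associated genes, Trem2 and Gpnmb were higher in animal 1 while Spp1 was higher in animal 2. Gpnmb encodes a transmembrane glycoprotein of lysosomes and phagosomes. It lies on mm10 chromosome 6 from 49036546 to 49070929 and had 328 counts and 2.85 TPM in animal 1 against 24 counts and 0.24 TPM in animal 2. Its scaled count was 12.7-fold higher in animal 1 (log2 ratio 3.66, 95% counting interval 3.09 to 4.35). It was detected in animal 1 and stood below 1 TPM in animal 2. In the second quantification its counts were 13.4-fold apart and its TPM 6.84 in animal 1 and 1.22 in animal 2. There a transcript of 365 bases, marked for nonsense-mediated decay, took 30.6% of its TPM in animal 1 and 72.2% in animal 2.

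Trem2 encodes a lipid-sensing receptor of macrophages. It lies on mm10 chromosome 17 from 48346401 to 48354147 and had 192 counts and 4.66 TPM in animal 1 against 59 counts and 1.54 TPM in animal 2. The scaled count was 3.05-fold higher in animal 1 (log2 ratio 1.61, interval 1.19 to 2.07). Its partner Tyrobp, the adaptor that carries the TREM2 signal, had 8.61 TPM in animal 1 against 10.48 TPM in animal 2. The log2 ratio of Tyrobp was -0.22 with a counting interval of -0.54 to 0.10, and its TPM intervals overlapped, so the order of the animals was not resolved for the adaptor. Per TPM of Trem2 there were 1.85 TPM of Tyrobp in animal 1 and 6.81 in animal 2. In the second quantification the same ratios were 1.74 and 5.79. Trem2 per TPM of the macrophage gene Mpeg1 was 0.616 in animal 1 and 0.161 in animal 2, and Gpnmb per TPM of Mpeg1 was 0.376 and 0.0251. The second quantification gave 0.643 and 0.178 for Trem2, and a smaller contrast of 0.491 and 0.0735 for Gpnmb.

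Spp1 encodes osteopontin, a secreted matrix protein made by activated macrophages and by several other cell types. It lies on mm10 chromosome 5 from 104435118 to 104441050 and had 324 counts and 6.49 TPM in animal 1 against 720 counts and 15.94 TPM in animal 2. It was 2.35-fold higher in animal 2 (log2 ratio -1.23, interval -1.43 to -1.04). Cd9, a tetraspanin of membranes and vesicles, had 35.76 TPM in animal 1 against 27.19 TPM in animal 2. Lgals3, the carbohydrate-binding galectin-3, had 7.47 TPM in animal 1 against 5.57 TPM in animal 2. Their log2 ratios of 0.45 and 0.47 had counting intervals above 0 but stayed under 2-fold, and the TPM intervals of Lgals3 overlapped between the animals. The 5 lipid-associated genes summed to 57.23 TPM in animal 1 against 50.48 TPM in animal 2, with 4 higher in animal 1 and 1 in animal 2. Spp1 was thus the exception within its role by direction alone.

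**Figure D3:**
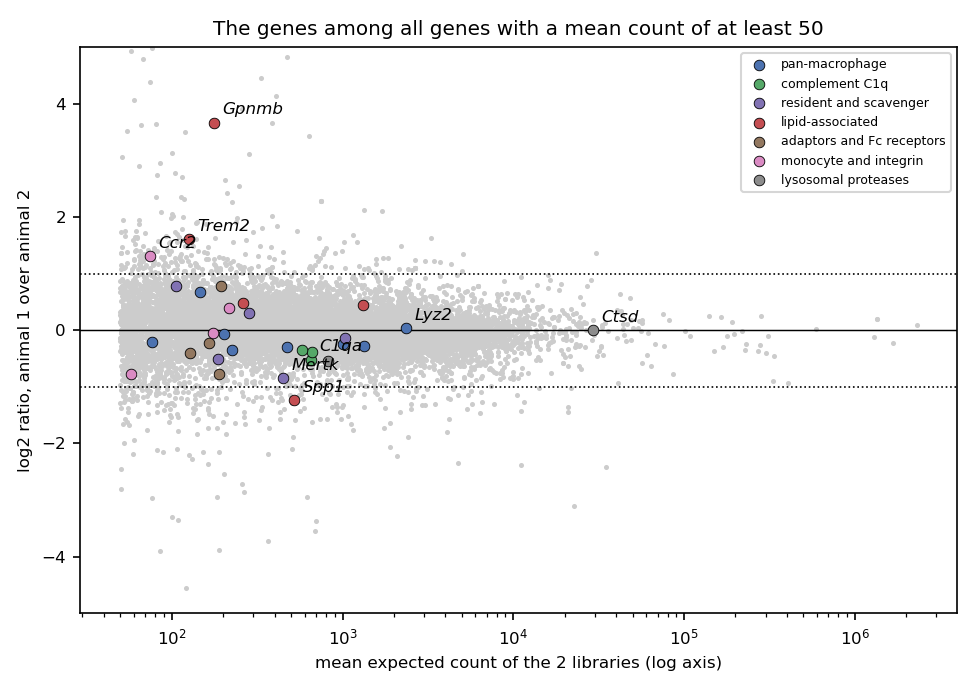
Mean expected count (log axis) against the log2 ratio, animal 1 over animal 2, for all 13569 genes that average 50 or more counts (grey) and the 31 macrophage and lipid-handling genes among them, coloured by role. Gpnmb (3.66), Trem2 (1.61) and Ccr2 (1.30) lie above the upper 2-fold line and Spp1 (-1.23) below the lower one, and 33 genes of the table lie beyond the axis limits of 5 either way.

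Most of the pan-macrophage genes stood at close levels in the animals. Csf1r, the receptor for the macrophage growth factors CSF1 and IL-34, had 7.62 TPM in animal 1 against 10.04 TPM in animal 2. Mpeg1, the pore-forming perforin-2, had 7.57 TPM in animal 1 against 9.55 TPM in animal 2. Laptm5, a lysosomal membrane protein of blood cells, had 6.06 and 7.58 TPM in animals 1 and 2, and Cd68, a glycoprotein of macrophage lysosomes, had 4.68 and 6.19 TPM. By scaled counts these 4 were each higher in animal 2 by less than 1.3-fold, with counting intervals of the ratio below 0. The TPM intervals of Mpeg1 were separate between the animals, while those of Csf1r, Laptm5 and Cd68 overlapped. Spi1, which encodes PU.1, had 1.46 TPM in animal 1 against 1.61 TPM in animal 2, and Aif1, the actin-binding protein IBA1, had 1.29 and 1.83 TPM. Their counting intervals spanned 0.

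Cx3cr1, the receptor for fractalkine, went the other way, with 1.30 TPM in animal 1 against 0.84 TPM in animal 2 (log2 ratio 0.68, interval 0.33 to 1.04). Its annotated span overlaps several other genes, 3 of them coding genes of the same strand. Lyz2, the lysozyme of macrophages and granulocytes, had 51.92 TPM in animal 1 against 52.17 TPM in animal 2. Some of its reads are shared with the neighbouring copy Lyz1, which was listed at 5.06 TPM in animal 1 against 4.52 TPM in animal 2. Adgre1, the F4/80 antigen, had 2.74 TPM in animal 1 against 1.80 TPM in animal 2, but nearly equal counts of 202 and 200. In animal 1 the tables gave the short transcripts Adgre1-203 and Adgre1-204 10.75% and 27.28% of its TPM on 3.47 and 7.06 counts, and in animal 2 they gave them 0. The second quantification put Adgre1 at 2.91 TPM in animal 1 against 2.99 TPM in animal 2. The 9 pan-macrophage genes summed to 84.64 TPM in animal 1 against 91.61 TPM in animal 2, of which 2 were higher in animal 1 and 7 in animal 2, with Lyz2 changing side under spike-in scaling.

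The 3 chains of C1q, the recognition unit of the classical complement pathway, were all higher in animal 2. C1qa had 15.28 TPM in animal 1 against 22.64 TPM in animal 2, C1qb 15.40 and 20.91 TPM, and C1qc 12.21 and 16.10 TPM. Their log2 ratios were -0.52, -0.39 and -0.35, and the TPM intervals of each gene were separate. The chains, which assemble in equal numbers, were close to each other within a library. C1qa per C1qb was 0.99 in animal 1 and 1.08 in animal 2, and C1qa per C1qc was 1.25 and 1.41. In the second quantification C1qa per C1qc was 1.00 in animal 1 and 1.23 in animal 2. The 3 genes lie beside each other on mm10 chromosome 4, between 136880129 and 136898803. They went in the opposite direction to Trem2, which stood at 0.305 TPM per TPM of C1qa in animal 1 and 0.068 in animal 2.

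The receptors of resident and scavenging macrophages were split, with 4 of 7 higher in animal 1 and 3 in animal 2 (the low gene Timd4 changed side under spike-in scaling), and summed to 14.91 TPM in animal 1 against 16.75 TPM in animal 2. Mrc1, the mannose receptor CD206, had 4.99 TPM in animal 1 against 5.70 TPM in animal 2. Lyve1, a hyaluronan receptor that lymphatic endothelium carries as well, had 3.86 TPM in animal 1 against 3.42 TPM in animal 2. Of 6 lymphatic markers with enough counts, 5 were higher in animal 1 as Lyve1 was (4 under spike-in scaling), with a median log2 ratio of 0.51 beside 0.30 for Lyve1, and Prox1 had -0.02. The part of Lyve1 RNA that came from macrophages was not tested. Mertk, a receptor for the engulfment of dying cells, had 2.09 TPM in animal 1 against 3.86 TPM in animal 2. Its log2 ratio of -0.85 (interval -1.05 to -0.65) became -1.07 under spike-in scaling, past the 2-fold rule. That scaling moved the median over all genes as well, from 0.01 to -0.21. Cd163, the haemoglobin scavenger receptor, had 1.03 TPM in animal 1 against 1.56 TPM in animal 2 (log2 ratio -0.52).

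Msr1, the class A scavenger receptor for modified lipoproteins, had 1.89 TPM in animal 1 against 1.33 TPM in animal 2 (log2 ratio 0.77, interval 0.36 to 1.2), but its TPM intervals overlapped. The low genes were Folr2, a folate receptor of resident macrophages, with 0.88 TPM in animal 1 against 0.70 TPM in animal 2, and Timd4, a receptor for phosphatidylserine on long-lived resident macrophages. Timd4 had 0.17 TPM on 14 counts in animal 1 against 0.18 TPM on 13 counts in animal 2. At such counts the interval of its log2 ratio ran from -1.17 to 1.23, so a 2-fold difference either way was not detectable at this depth.

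Of the adaptors and Fc receptors, which signal through ITAM motifs or oppose that signal, the activating and inhibitory receptors for IgG ordered the animals in opposite ways. Fcgr3, the activating receptor, had 3.02 TPM in animal 1 against 5.33 TPM in animal 2 (log2 ratio -0.77). Fcgr2b, the inhibitory receptor, had 4.15 TPM in animal 1 against 2.10 TPM in animal 2 (log2 ratio 0.78). Neither reached 2-fold, but their ratio did. Fcgr3 per Fcgr2b was 0.73 in animal 1 and 2.54 in animal 2, and 0.65 and 2.29 in the second quantification. Both genes have counts that are not whole, so the tables split some reads between related genes. Fcgr2b is also expressed by B cells, and Fcgr3 by natural killer cells and granulocytes. Fcer1g, the common Fc receptor gamma chain, had 114 counts in animal 1 against 143 counts in animal 2 (log2 ratio -0.41, interval -0.78 to -0.04). Tyrobp per Fcer1g was 1.67 in animal 1 and 1.5 in animal 2, but close to equal in the second quantification, with log2 ratios of 0.26 in animal 1 and -0.01 in animal 2.

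Of the 4 monocyte and integrin genes, Ccr2, the chemokine receptor that takes monocytes out of the bone marrow, passed the 2-fold rule. It lies on mm10 chromosome 9 from 124101950 to 124113557 and had 107.88 counts and 0.76 TPM in animal 1 against 40.63 counts and 0.35 TPM in animal 2. It was 2.47-fold higher in animal 1 (log2 ratio 1.30, interval 0.78 to 1.87), at a level under 1 TPM in both animals. Its counts are not whole, so some of its reads were shared out by the tables. Cd14, the co-receptor for lipopolysaccharide, had 3.02 TPM in animal 1 against 3.35 TPM in animal 2. Its log2 ratio of -0.06 became positive under scaling by library total and in the second quantification. Itgam (CD11b) had 1.47 TPM in animal 1 against 1.48 TPM in animal 2, while Itgax (CD11c) had 0.29 and 0.51 TPM. The counts of Itgam were 253 in animal 1 and 181.46 in animal 2 (log2 ratio 0.40), a direction that its TPM did not show. The counts of Itgax were 43.85 in animal 1 and 70.95 in animal 2, so the tables shared out some of its reads. The TPM intervals of each integrin chain overlapped between the animals.

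The lysosomal proteases were the most abundant role. Ctsd, the aspartic protease cathepsin D, had 391.01 TPM in animal 1 against 407.46 TPM in animal 2 and ranked first of the 34 genes. Its scaled counts had a log2 ratio of 0.00 although its TPM intervals were separate, and in each library the printed TPM lay outside its own interval. Ctss, the cysteine protease cathepsin S of antigen-presenting cells, had 14.26 TPM in animal 1 against 21.51 TPM in animal 2 (log2 ratio -0.55, interval -0.69 to -0.40). Ctss therefore ordered the animals as the C1q chains did.

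Markers of other cells differed between the libraries, and their part in the values above was not tested. Of the 8 pan-leukocyte genes, none was 2-fold apart and 7 were detected, and they summed to 26.78 TPM in animal 1 against 27.50 TPM in animal 2, led by Arhgdib, Coro1a and Lcp1. Of 12 genes of MHC class II and dendritic cells, 9 of 10 with enough counts were higher in animal 2. Cd74, H2-Eb1, H2-Aa and H2-Ab1 passed the 2-fold rule, Cd74 with 44.99 TPM in animal 1 against 114.45 TPM in animal 2, and the list's sum was 94.52 TPM in animal 1 against 229.82 TPM in animal 2. The B and plasma cell list went the other way in 10 of 11 genes. Its 3 genes past the rule were Igkc with 28.88 TPM in animal 1 against 1.95 TPM in animal 2, Igha with 13.04 and 1.55 TPM, and Jchain with 2.47 and 0.20 TPM. No marker of neutrophils or of T and NK cells was detected at 1 TPM in both libraries, and the defining neutrophil genes Ly6g and Ngp were at 0 counts in both. Other neutrophil genes had reads, among them Csf3r with 47.98 counts in animal 1 against 57 in animal 2, Mmp9 with 35 and 29, and S100a9 with 12 and 0. The neutrophil list summed to 2.59 TPM in animal 1 against 1.40 TPM in animal 2, and the T and NK cell list to 2.14 against 2.35 TPM. The monocyte list, of which 5 of 10 genes were detected and none passed the rule, summed to 100.18 TPM in animal 1 against 96.63 TPM in animal 2, most of it Nr4a1. Within it Ly6c2 had 0.61 TPM in animal 1 against 1.59 TPM in animal 2, opposite to Ccr2.

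Markers of muscle, fat and connective tissue were unequal as well, and where that RNA came from was not tested. All 10 skeletal muscle genes passed the rule, with sums of 187.79 TPM in animal 1 against 0.55 TPM in animal 2, where 5 of them were at 0. All 10 adipocyte genes were higher in animal 1, and summed to 3514.03 TPM in animal 1 against 2255.29 TPM in animal 2. Of these Ucp1, the uncoupling protein of brown fat, passed the rule with 743.37 TPM in animal 1 against 297.66 TPM in animal 2. All 8 fibroblast and capsule genes were higher in animal 1 as well, with sums of 145.07 and 114.34 TPM in animals 1 and 2. The sums of the endothelial list were 171.67 and 192.36 TPM, of the lymphatic list 18.43 and 16.19 TPM, of the mast cell list 18.32 and 18.79 TPM, of the glial list 13.67 and 9.27 TPM and of the erythroid list 2055.98 and 1576.98 TPM in animals 1 and 2. Most of the mast cell sum was Hdc, with 14.43 TPM in animal 1 against 15.65 TPM in animal 2, and 1 of its 8 genes was detected. In the lymphatic list 1 of 2 genes named Ccl21a passed the rule, higher in animal 1. Trem2, Gpnmb and Ccr2 were higher in the animal with larger sums for muscle, fat, fibroblast, B and plasma cell, glial, erythroid and medulla genes. The lymphatic, monocyte and neutrophil sums were also larger in animal 1. The C1q chains, Ctss and Spp1 were higher in the animal with larger sums for MHC class II, endothelial and cortex genes. The pan-leukocyte, T and NK cell and mast cell sums were also larger in animal 2. The endothelial order reversed in the second quantification, with 355.36 TPM in animal 1 against 352.27 TPM in animal 2. With 2 animals any gene shares its order with many others, and a link between these genes and the lists was not tested. The gland itself was recognisable by its defining genes, all detected. The 8 genes of the cortex summed to 15869 TPM in animal 1 against 20272 TPM in animal 2, with 4 higher in each animal (3 and 5 under spike-in scaling). The 6 genes of the medulla summed to 1802.88 TPM in animal 1 against 1522.0 TPM in animal 2, with all 6 higher in animal 1 (4 under spike-in scaling).

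**Figure D4:**
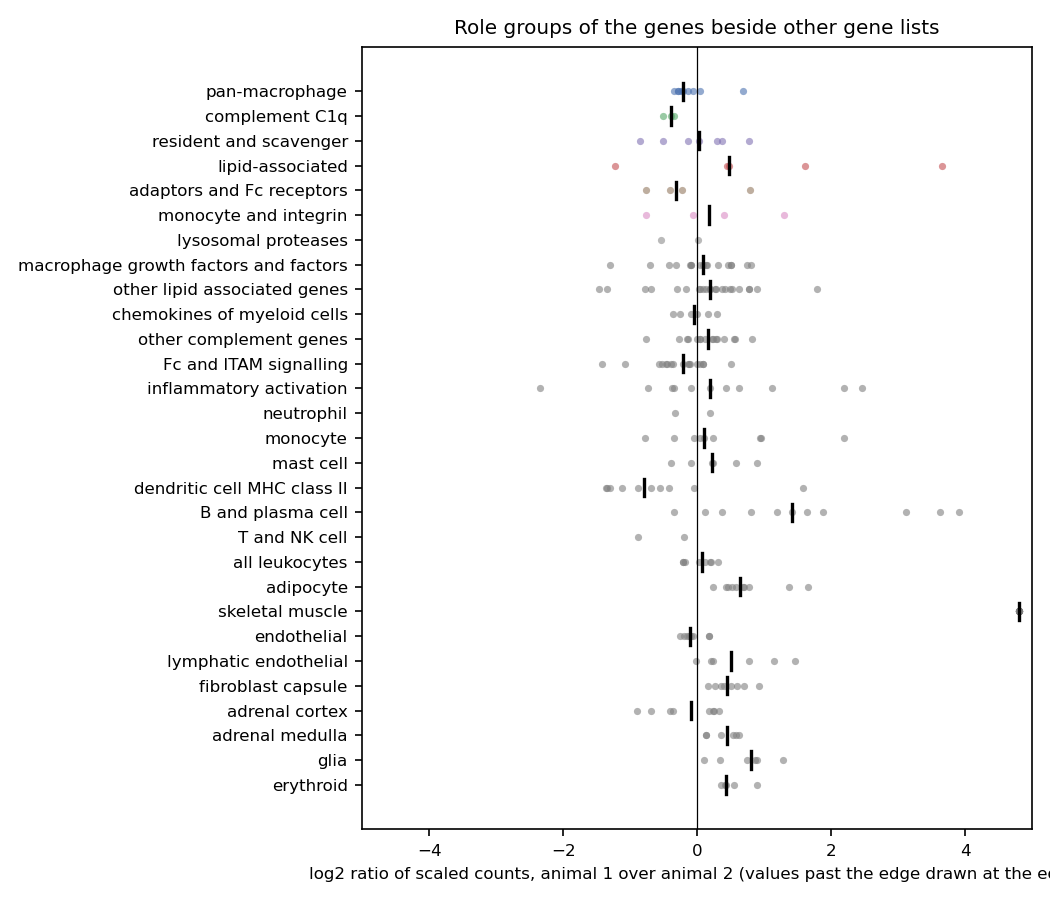
Log2 ratios, animal 1 over animal 2, of the 7 role groups (colours) and of 22 other gene lists (grey), with 1 point per gene of mean count at least 10 and a black bar at the median where a list has 3 or more such genes. The lipid-associated role has points on both sides of 0 (Spp1 at -1.23, Gpnmb at 3.66), the C1q points lie together below 0, and the skeletal muscle points lie past the right edge.

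Of 24 further genes of lipid-associated macrophages and lysosomal lipid handling, 23 had enough counts, and 17 were higher in animal 1 and 6 in animal 2, or 11 and 12 under spike-in scaling. Only Ctsl and Abca1 passed the 2-fold rule, both higher in animal 2. Ctsl, a lysosomal cysteine protease, had 71.79 TPM in animal 1 against 198.29 TPM in animal 2. Abca1, the exporter of cellular cholesterol, had 31.23 TPM in animal 1 against 82.75 TPM in animal 2. The 3 genes of highest level were Fabp4 with 1104.73 TPM in animal 1 against 659.04 TPM in animal 2, Ctsb with 445.86 and 405.13 TPM, and Apoe with 207.51 and 369.73 TPM. Many genes of this list are active in adipocytes, as Fabp4 and Lpl are, or in steroidogenic cells, and the source of their RNA was not tested. Among the other genes, Slc37a2 had 19.21 TPM in animal 1 against 13.48 TPM in animal 2, and Itgb2 had 2.64 and 2.34 TPM. Mmp12 had 2.51 and 1.63 TPM, and Clec7a 0.43 and 1.10 TPM. Atp6v0d2, with 0.18 and 0.05 TPM on 16 and 4 counts, and Cst7, with 0.03 TPM on 1 count in each, were near the floor. These examples were chosen after their values were seen.

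Ligands of Csf1r and Cx3cr1 were detected in both glands. Il34 had 23.44 TPM in animal 1 against 26.07 TPM in animal 2, and Csf1 had 3.96 and 3.99 TPM, so the growth factors that act on Csf1r were within 1.2-fold of each other between the animals. Cx3cl1, the ligand of Cx3cr1, had 1226 counts in animal 1 against 1030 counts in animal 2. Ccl2, a ligand of Ccr2, was below 1 TPM, at 0.47 TPM on 13 counts in animal 1 against 0.24 TPM on 6 counts in animal 2. Of 18 growth factor, receptor and transcription factor genes, 17 had enough counts, 10 were higher in animal 1 and 7 in animal 2, or 6 and 11 under spike-in scaling, and none passed the 2-fold rule. The highest were Cebpb with 151.49 and 151.59 TPM and Cebpa with 49.95 and 30.83 TPM in animals 1 and 2. Mitf, Tfeb and Tfe3, factors that bind the M-box and the CLEAR element, had 2.52 and 2.53 TPM, 5.22 and 3.74 TPM, and 10.28 and 12.64 TPM in animals 1 and 2.

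The remaining pathway lists held few differences. Of 15 chemokines 6 had enough counts and none passed the rule, with Cxcl12 at 12.13 and 13.86 TPM and Ccl6 at 4.72 and 5.02 TPM in animals 1 and 2. The list of 17 complement genes beside C1q includes Itgam and Itgax, which are also among the 34 genes. Of the 17, 16 had enough counts and none passed the rule. Cfd had 859.49 and 752.93 TPM and C3 300.89 and 210.19 TPM in animals 1 and 2. Of the 16 with enough counts, 11 were higher in animal 1 and 5 in animal 2, or 7 and 9 under spike-in scaling. Of 20 Fc receptor and ITAM signalling genes, 17 had enough counts, and 13 were higher in animal 2 and 4 in animal 1. Fcgr4, a further activating receptor for IgG, passed the rule in the direction of Fcgr3, with 0.80 TPM in animal 1 against 1.75 TPM in animal 2. Fcgrt, Sirpa and Lyn led that list, with 33.97 and 33.48 TPM, 25.20 and 18.28 TPM, and 13.59 and 17.08 TPM in animals 1 and 2.

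Genes of inflammatory activation were low, and 3 of 16 were detected. The highest were Tgfb1 with 6.24 TPM in animal 1 against 7.92 TPM in animal 2, Retnla with 3.81 and 1.80 TPM, and Tlr4 with 2.14 and 2.18 TPM. Retnla, a secreted protein linked to alternative activation of mouse macrophages, was the gene past the 2-fold rule (log2 ratio 1.11), higher in animal 1. Il1b had 17 counts in animal 1 and 14 in animal 2, Tnf had 10 and 6, and Il6 had 0 in both. A count of 0 allows up to 3 counts in a library of this depth.

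The second quantification of the same reads placed 33 of the 34 genes in the same direction between the animals, with Cd14 as the exception. Its TPM values were higher for each of the 34 genes, by a median of 1.83 times for the 34 genes and 1.84 times for all detected genes. Its log2 ratio was 3.75 for Gpnmb, 1.34 for Trem2, 1.32 for Ccr2 and -1.19 for Spp1. Both quantifications read the same libraries, so their agreement says nothing about variation between animals.

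**Figure D5:**
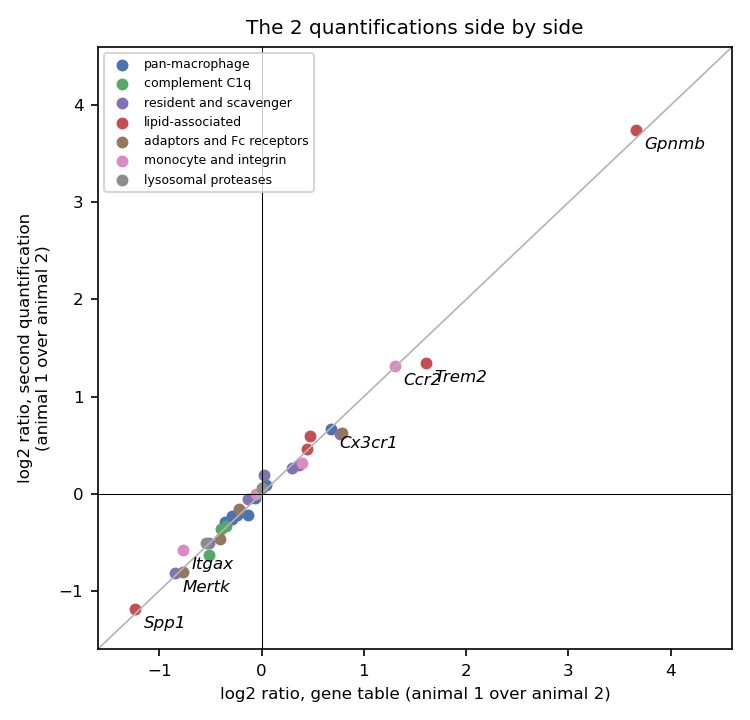
Log2 ratio, animal 1 over animal 2, of scaled counts in the gene table (horizontal axis) and in the second quantification (vertical axis) for the 34 genes, coloured by role, with the line of equal values. Gpnmb (3.66 and 3.75) and Spp1 (-1.23 and -1.19) lie near the line, and Trem2 (1.61 and 1.34) lies below it.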

How the data were processed

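Total RNA-seq of 2 adrenal gland libraries was used, with totals over genes of 35452819 expected counts in animal 1 and 34879073 in animal 2. Per the file headers, the authors' gene and transcript tables hold expected counts, TPM over all entries, the percent of a gene's TPM given to each transcript, and bounds of a TPM interval, at a level they do not name. Per the deposited description, they came from an alignment to the transcriptome (mm10, GENCODE M21), and the second table, with estimated counts and TPM, directly from the reads. Column names are those that RSEM and kallisto write; program names and versions were not given in the sources. Spike-ins and 26248 entries named by a number were left out.

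Symbols and coordinates came from GENCODE M21, and promoters from RefSeq. Expected counts were rounded and scaled by TMM (edgeR 4.0.16, R 4.3.3), with 0.5 added; the step was tested on simulated data. The spread between the libraries (edgeR, common) was a coefficient of variation of 0.242 over 17024 genes. Counting intervals of ratios are exact (conditional binomial, 95%) and cover counting error only, because without molecular identifiers a read need not be a separate molecule. Detection was set at 1 TPM, the 2-fold rule at a mean count of 50, and medians at a mean count of 10. Nothing beyond the labels shows that handling was separate, so differences between the animals may be technical. The genes and lists were chosen with earlier results of these data known. Values are given for genes past the 2-fold rule, the 2 highest of each role, the 3 highest of the pathway lists, and genes needed for a role or pair, while of the cell type lists mainly sums and genes past the rule are given. Other named genes, Lyz1 among them, were chosen after their values were seen. Some genes that the rule names are not reported here. DESeq2 size factors, library totals, spike-ins, protein-coding genes alone, other thresholds and the second table were tried as alternatives.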

Additional observations from a re-analysis of the deposited data

How the results depend on the processing

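The 4 genes past the 2-fold rule became 8 at a fold of 1.5, with Cx3cr1, Fcgr2b, Fcgr3 and Mertk added. The share of all genes past a fold of 1.5 is not given here, so the 8 have no background beside them. The summed level of 654.7 TPM became 2166.57 TPM when rescaled over nuclear protein-coding genes and 1193.36 TPM in the second quantification. There the animals were close, with 1192.42 TPM in animal 1 against 1194.3 TPM in animal 2. In sums of the gene table chosen after seeing the data, the level was 255.51 TPM without Ctsd and 171.99 TPM without Ctsd, Lyz2 and Cd9. Leaving out each replicate gave sums of 631.43 to 678.06 TPM and 28 to 30 detected genes, against 28 in both; ratios between the animals have no such value. The median log2 ratio ran from -0.35 (spike-ins) to -0.07 (library totals). The ratio of Ctsd, Lyz2 and Timd4 changed sign with spike-ins, that of Cd14 with library totals and the second quantification, that of Ctsd and Timd4 with protein-coding genes alone, and that of Adgre1, Ctsd, Itgam, Lyz2 and Timd4 when deposited TPM replaced counts. The cause was not tested. Of 18 ratios within a library, 9 moved beyond the spread between the animals with counts not corrected for length, and 2 with the second quantification. Depth limits Timd4, Folr2 and Aif1, whose mean counts were under 50. No paired analysis was possible because the libraries form 1 group.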

Other observations

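For a few of the genes the transcript with the largest share of TPM differed between the animals. That transcript was the same in both animals for 29 of the 34 genes, and for 28 in the second quantification. It was the same in both animals and both quantifications for 23. Spp1 was one of the genes that differed. Spp1-201 took 67.6% of its TPM in animal 1 and 7.47% in animal 2, while Spp1-202 took 23.94% and 87.38%. These transcripts are 1410 and 1411 bases long, and the second quantification gave other transcripts the largest share in both animals. Trem2-201 took 90.99% of Trem2 in animal 1 and 97.46% in animal 2, and 93.1% and 92.0% in the second quantification. For Aif1, a transcript with a retained intron, Aif1-205, took 48.87% in animal 1 and 77.96% in animal 2, on 8.91 and 18.37 counts.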
